A study of Mus musculus with 12 samples.

Results

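Elastic fibre and microfibril genes were examined in sorted macrophages of mouse pancreatic tumours. The 10 genes are Eln, Fbn1, Mfap2, Mfap4, Mfap5, Emilin1, Fbln1, Fbln2, Fbln5 and Ltbp1. They were taken by gene name from the annotation of the array and are covered by 14 of the 39394 probes analysed. Of these genes 9 are among the 20370 genes and features tested, and Fbln5 is not, because neither of its probes passed the filter on dim signals. The 12 samples are 6 labelled as YFP+ and 6 labelled as YFP- macrophages, each hybridised to its own array. YFP is yellow fluorescent protein, and the samples of both groups are labelled as pancreas tumour from female C57/B6 mice of 8 to 10 weeks that carried implanted tumours. The genotype is labelled as not provided. The series' design text names FLT3-CRE/LSL-YFP mice among its sources of macrophages. In such a reporter a cell in which Cre was active becomes permanently YFP+ along with its descendants, and any cell that Cre did not reach is YFP-. The labels do not give the surface markers of the sort, the number of cells, or whether a tumour number shared by a YFP+ and a YFP- sample means the same animal. The comparison asks whether these matrix genes differ between YFP+ and YFP- macrophages.

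Elastic fibres give tissues their recoil. They have a core of cross-linked elastin and a mantle of microfibrils, whose backbone is fibrillin and which carries associated glycoproteins, fibulins and emilins. Latent TGF-beta binding proteins tether the inactive growth factor to these microfibrils. Fibroblasts and smooth muscle cells are the textbook producers, and macrophages are better known for enzymes that degrade elastin.

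Each value below comes from a probe of 60 bases, and the first 30 bases are shown for 3 of the 4 genes that differed between the groups, Fbn1, Fbln1 and Fbln2, since these are the sequences on which the result was read. They are given 5' to 3' as deposited in the annotation of the array, in lower case because no part of them is singled out.
Fbn1: tcacttatgagtatggtgcagtacatgtaa
Fbln1, first probe: ttttttaaccaacggggctctttgtgtttc
Fbln2: ctcaactatggctacagctgacattccatt
In mm9 coordinates of the array annotation the whole probes lie at chr2:125126727-125126786 on the minus strand for Fbn1, at chr15:85115998-85116057 on the plus strand for Fbln1 and at chr6:91222118-91222177 on the plus strand for Fbln2. The exon or untranslated region in which they fall was not analysed here.

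For 3 of these 4 genes a promoter was matched in the RefSeq table used here, build GRCm38.p6, and the 250 bases before the start of transcription are shown. Any part of the promoters in the difference between the groups was not tested. Capitals mark a GC box, GGGCGG on either strand, the letters bound by Sp1 family factors. For Fbln1 the more downstream of its RefSeq starts was taken, and the window of the other start held no GGGCGG.
Fbn1, chr2:125506439-125506688, minus strand: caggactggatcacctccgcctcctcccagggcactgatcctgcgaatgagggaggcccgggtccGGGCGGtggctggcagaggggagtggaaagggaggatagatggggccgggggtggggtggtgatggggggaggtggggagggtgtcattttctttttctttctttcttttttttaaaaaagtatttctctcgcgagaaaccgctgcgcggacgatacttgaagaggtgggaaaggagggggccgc
Fbln1, chr15:85205758-85206007, plus strand: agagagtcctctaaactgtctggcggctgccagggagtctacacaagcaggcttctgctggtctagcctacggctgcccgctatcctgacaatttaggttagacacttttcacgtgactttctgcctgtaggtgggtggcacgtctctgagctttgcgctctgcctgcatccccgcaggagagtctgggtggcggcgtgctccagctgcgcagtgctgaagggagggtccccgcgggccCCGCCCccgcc
Fbln2, chr6:91212514-91212763, plus strand: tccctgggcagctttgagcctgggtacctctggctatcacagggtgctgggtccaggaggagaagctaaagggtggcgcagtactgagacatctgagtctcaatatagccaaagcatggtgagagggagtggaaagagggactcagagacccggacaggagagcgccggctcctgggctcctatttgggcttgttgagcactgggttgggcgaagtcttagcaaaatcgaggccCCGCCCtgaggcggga
The box lies 185 bases before the start in Fbn1, 11 in Fbln1 and 16 in Fbln2. Of the 10 genes 7 matched the promoter table, with 11 windows, and Eln, Mfap4 and Mfap5 did not. GGGCGG occurred in 5 of the 11 windows, which belong to 5 genes (Fbn1, Mfap2, Fbln1, Fbln2 and Fbln5), against 32.7% of all promoter windows of that length. The windows of Emilin1 and Ltbp1 held no GGGCGG. Neither TATAAA, the TATA box, nor TGANTCA, an AP-1 site, occurred in any of the 11 windows on either strand, against 12.4% and 6.75% of all promoter windows. These are matches of letters and no measure of binding.

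Levels are given as the log2 of a probe's signal minus the log2 of the 75th percentile of all probes on that array, so that a level of 0 is a signal equal to that percentile and a step of 1 is a doubling. A level compares one probe between arrays and not one gene with another. The number of arrays limits the precision, and a p-value here reflects how much these samples varied. Within a group the titles carry 6 different tumour numbers, but the labels do not say that these are separate animals. Before scaling, the arrays differed in brightness: their 75th percentile was 3661 ± 265 (SD, n = 6) in YFP+ and 2642 ± 413 (SD, n = 6) in YFP-, and an exact two-sided permutation test gave p = 0.0043. All 15 macrophage markers tested, Csf1r and Adgre1 among them, were well above background on all 12 arrays. None of the 15 passed the test between the groups by limma (1 had an unadjusted p under 0.05), and their median difference was -0.11. The arrays lay on 3 slides, each with 2 of either group.

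Of the microfibril and fibulin genes, Fbn1, Mfap5, Fbln1 and Fbln2 were lower in the YFP+ samples. They passed the test (limma, adjusted p under 0.05 over all features), each lower in YFP+ by 5.16 to 13.9-fold. The count is 4 of 9 tested members lower and 0 higher, beside 1.41% of all features lower and 0.334% higher. Eln, Mfap2, Mfap4, Emilin1 and Ltbp1 did not pass. The estimate was negative in 8 of the 9 and positive in Emilin1, with a median difference of -2.37 against -0.03 over all features. In samples of sorted cells, fewer cells of a type that makes these transcripts and less transcript per cell cannot be told apart.

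**Figure D1:**
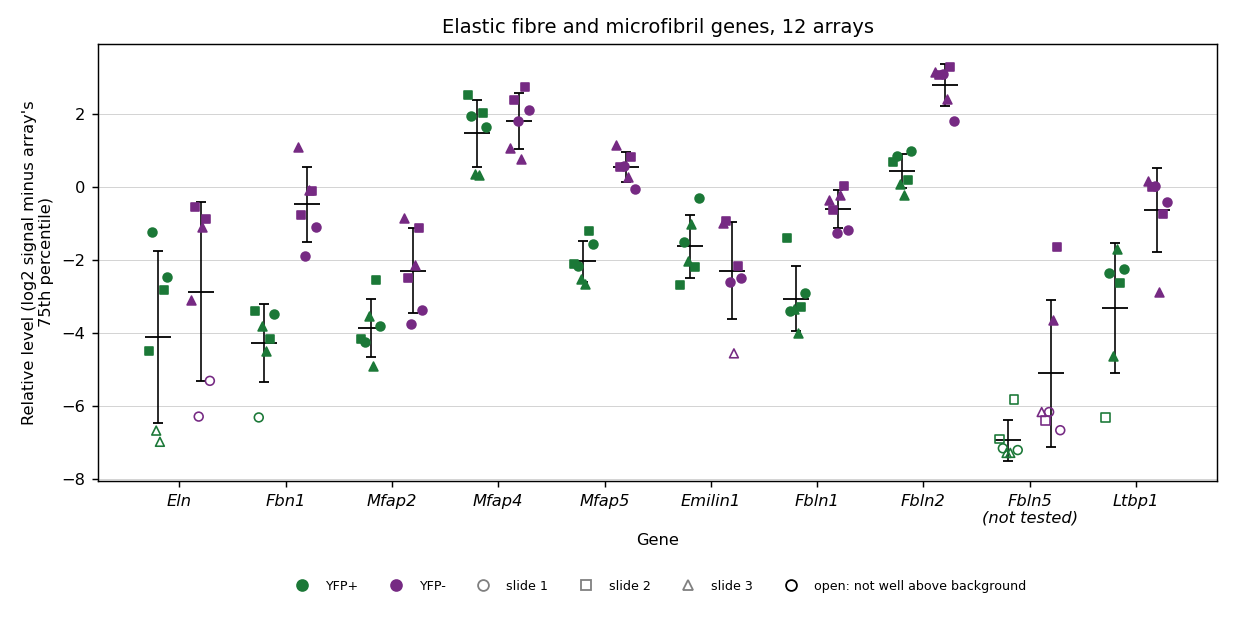
Relative level (log2 signal minus the array's 75th percentile) of each elastic fibre and microfibril gene on the 12 arrays, with YFP+ in green and YFP- in purple, marker shape for the slide, filled markers for probes well above background, and bars for the mean ± SD of 6 arrays. The colours do not overlap for Fbn1, Mfap5, Fbln1 and Fbln2; Fbln5 is shown by its second probe and was not tested.

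Among the microfibril genes, Fbn1 encodes fibrillin-1, the main structural protein of microfibrils. In YFP+ its level ran from -6.31 through a median of -3.98 to -3.39, and in YFP- from -1.88 through a median of -0.44 to 1.11. Every YFP+ array was below every YFP- array, and YFP+ replicate 2, the lowest, was the only array on which the probe was not well above background. The difference was -3.80 ± 0.56 (SE, n = 6 per group), that is 13.9-fold lower in YFP+ (95% interval 5.96 to 32.6), with a limma adjusted p of 0.0042.

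Mfap5, also called MAGP-2, is a small glycoprotein that binds fibrillin. Its level in YFP+ was -2.65 at the lowest, -2.13 at the median and -1.20 at the highest, and in YFP- -0.04, 0.57 and 1.15. The groups did not overlap, and the probe was well above background on all 12 arrays. The difference was -2.59 ± 0.29 (SE, n = 6 per group), 6.01-fold lower in YFP+ (95% interval 3.89 to 9.29), with a limma adjusted p of 7.2e-04.

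Mfap2, or MAGP-1, the relative of Mfap5 on the same microfibrils, is covered by 2 probes. On the probe used, YFP+ levels ran from -4.91 through -3.98 to -2.55 and YFP- levels from -3.76 through -2.31 to -0.84. YFP- replicates 3 and 6 lay within the YFP+ range, so the groups overlapped. The difference was -1.58 ± 0.54 (SE, n = 6 per group), and its limma adjusted p was 0.23.

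Mfap4 belongs to the fibrinogen-related proteins and binds elastin and fibrillin. YFP+ levels were 0.34, 1.80 and 2.52 at the lowest, median and highest, and YFP- levels 0.77, 1.97 and 2.75. Both groups covered nearly the same range on a probe well above background on all 12 arrays. The difference of -0.35 ± 0.46 (SE, n = 6 per group) had a limma adjusted p of 0.86 and a 95% interval from -1.34 to 0.65. That interval does not reach the differences estimated for Fbn1, Mfap5, Fbln1 and Fbln2; the differences between the genes were not tested.

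Fbln1 and Fbln2 encode fibulins, calcium-binding glycoproteins that join elastic fibres to basement membranes and other matrix. On the first Fbln1 probe the YFP+ levels were -3.99, -3.31 and -1.40 at the lowest, median and highest, and the YFP- levels -1.27, -0.49 and 0.03. The groups did not overlap, but YFP+ replicate 1, at -1.40, stood just below the lowest YFP- array and above the other 5 YFP+ arrays, all at -2.90 or below. The difference was -2.45 ± 0.40 (SE, n = 6 per group), 5.47-fold lower in YFP+ (95% interval of the log2 difference -3.32 to -1.58), with a limma adjusted p of 0.0077.

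For Fbln2 the YFP+ levels were -0.20, 0.45 and 0.99 and the YFP- levels 1.81, 3.08 and 3.29. The groups did not overlap, and the probe was well above background on all 12 arrays. The difference was -2.37 ± 0.30 (SE, n = 6 per group), 5.16-fold lower in YFP+ (95% interval 3.26 to 8.15), with a limma adjusted p of 0.0016.

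Fbln5, a fibulin needed to assemble elastin onto microfibrils, was hardly measured. Its first probe was not well above background on any array, with processed signals between 24.4 and 29.99 intensity units. Its second probe was well above background on 2 of 12 arrays, YFP- replicates 4 and 5, at levels of -3.63 and -1.63, while the other 10 lay between -7.28 and -5.83. The difference was -0.53 on the first probe (exact two-sided permutation p = 0.0065) and -1.84 on the second (p = 0.022, same test). Over the 6827 probes not well above background on any array the median difference was -0.48, in the same direction, so the first value lies close to that of unmeasured probes. On the second probe 10 of 12 arrays were dim as well, so its p-value may rest in part on the same shift. The second gave no bound on a fold, since the mean of the dim arrays' detection limits (-5.09) was above the YFP- mean of -5.11.

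Eln encodes tropoelastin, the core of the fibre. Its YFP+ levels were -6.98, -3.66 and -1.23 and its YFP- levels -6.29, -2.10 and -0.55 at the lowest, median and highest. It was well above background on 4 of 6 arrays of each group, and in each group the other 2 arrays lay at -5.31 or below, on slide 3 in YFP+ and on slide 1 in YFP-. The difference was -1.24 ± 1.26 (SE, n = 6 per group) at a limma adjusted p of 0.80, with a 95% interval from -3.97 to 1.49. It was 3.95 within slide 1, -2.95 within slide 2 and -4.73 within slide 3, each with 2 arrays against 2, so the spread on this probe does not allow a direction to be given.

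Emilin1 links elastin to microfibrils and restrains the processing of TGF-beta. It was the only tested member with a positive estimate, 0.67 ± 0.60 (SE, n = 6 per group) with a 95% interval of -0.64 to 1.97 and a limma adjusted p of 0.77. YFP+ levels were -2.68, -1.77 and -0.31 and YFP- levels -4.55, -2.33 and -0.94. The groups overlapped widely, and YFP- replicate 4, at -4.55, was the only array not well above background.

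Ltbp1 encodes the latent TGF-beta binding protein that anchors the inactive growth factor to fibrillin. Its YFP+ levels were -6.32, -2.50 and -1.70 and its YFP- levels -2.88, -0.20 and 0.18. The groups overlapped through a single array, YFP- replicate 4, at -2.88. The probe was well above background on 5 of 6 YFP+ and 6 of 6 YFP- arrays, the exception being YFP+ replicate 1, at -6.32. The difference was -2.68 ± 0.79 (SE, n = 6 per group), 6.42-fold lower in YFP+ (95% interval 1.95 to 21.1), with a limma adjusted p of 0.14. Without YFP+ replicate 1 the difference was -2.08. Ltbp1 passed the threshold only with normexp background correction among the settings tried, at a limma adjusted p of 0.027.

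**Figure D2:**
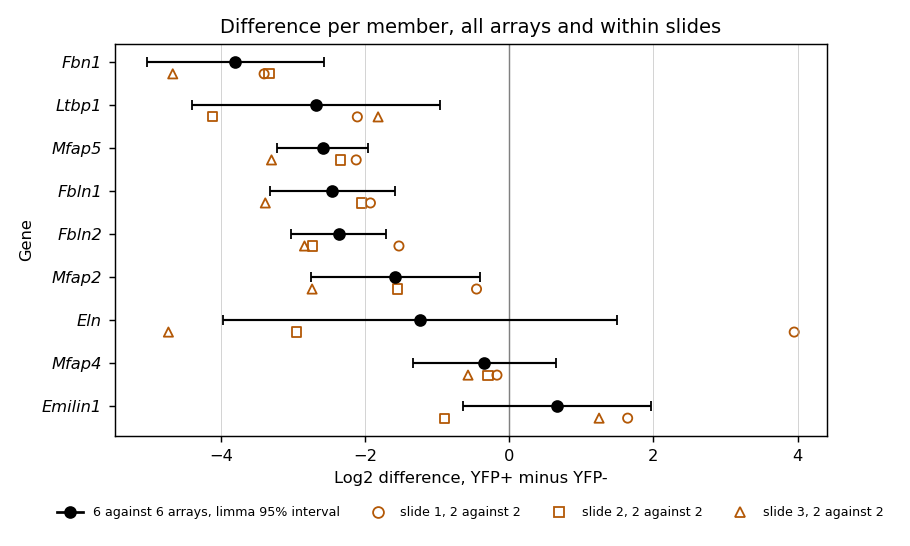
Log2 difference of YFP+ minus YFP- for the 9 tested members, with black points and bars for the estimate over 6 against 6 arrays and its limma 95% interval, and open orange markers for the difference within each slide of 2 against 2 arrays. The intervals of Fbn1, Ltbp1, Mfap5, Fbln1, Fbln2 and Mfap2 lie below 0, and Eln spans 3.95 to -4.73 between slides.

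Within each slide the 4 genes that passed the test were lower in YFP+, as they had to be with groups that did not overlap. On slides 1, 2 and 3 the difference was -3.40, -3.33 and -4.67 for Fbn1, and -2.12, -2.34 and -3.30 for Mfap5. It was -1.93, -2.05 and -3.38 for Fbln1 and -1.53, -2.73 and -2.84 for Fbln2. Without overlap, all 4 were also bound to be lower in YFP+ in each of the 6 tumour numbers that the titles share. Neither split is a further test of direction. All 4 passed in each of 18 fits that left out an array or a tumour number. The same 4 passed with the slide as a block, beside 2.13% of all features lower in YFP+, and with every probe tested alone, beside 1.24% of all probes tested. With array brightness as a covariate none of the 4 passed, beside 0.0393% of all features lower in YFP+ in that fit. The estimates were then -5.50 ± 0.88 (SE) for Fbn1, -2.59 ± 0.54 for Mfap5, -2.65 ± 0.75 for Fbln1 and -2.25 ± 0.57 for Fbln2, with limma adjusted p of 0.063, 0.17, 0.28 and 0.21. Brightness differed between the groups, as given above, and its part in the result was not tested.

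Groups without any overlap are a second description of the same data. They occurred in 4 of the 9 tested members with YFP+ below YFP-, the same Fbn1, Mfap5, Fbln1 and Fbln2, against 1.46% of all features, and no member had YFP+ above YFP-, against 0.422%. An unadjusted limma p under 0.05 was reached by 6 of the 9, the additional ones being Mfap2 and Ltbp1, against 11.2% of all features. Detection could not show such a split for the 5 of 14 probes that were well above background on all 12 arrays. Of the 14 probes 6 were well above background on more YFP- than YFP+ arrays, against 12.3% of all probes, 1 on more YFP+ arrays (Emilin1), against 17.6%, and 7 on equally many. By Fisher's exact test no member probe had an unadjusted p under 0.05, the smallest being 0.18. Over all 39394 probes 115 did and 0 passed after adjustment, that is 0%. With 6 arrays per group this test has little power, so the lack of calls does not show equal detection.

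The 4 genes with a pair of probes allow a check of one sequence against another. The second Fbln1 probe, 448 bases from the first, was well above background on 0 of 6 YFP+ and 3 of 6 YFP- arrays, with a difference of -1.58 (exact two-sided permutation p = 0.12). Arrays not well above background entered both group means of this probe, so no bound on a fold is given. For Mfap2 the other probe gave -2.05 ± 0.99 (SE; limma adjusted p = 0.49 with every probe tested alone) beside -1.58 on the probe used. For Ltbp1 the second probe, which matches a cDNA clone 343585 bases away in mm9, gave -1.60 ± 0.69 (SE; adjusted p = 0.41 in the same fit) beside -2.68. Both probes of each of the 4 genes had a negative estimate. For Fbln5 the first probe was not well above background on any array, and such probes had a median difference of -0.48. The second Fbln1 probe was dim on all YFP+ arrays. For Fbln5 and Fbln1 the shared sign is therefore hardly a check.

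**Figure D3:**
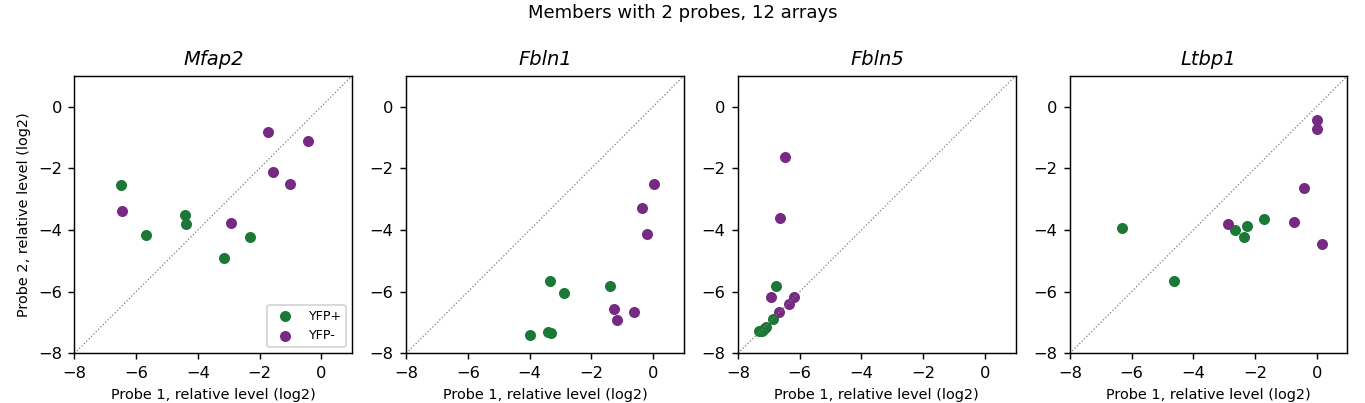
Relative level (log2) on the second probe against that on the first for Mfap2, Fbln1, Fbln5 and Ltbp1, one point per array, YFP+ in green and YFP- in purple, with a dotted line of equality. The second Fbln1 probe was dimmer than the first on all 12 arrays by 2.34 to 6.02, and 10 of 12 Fbln5 points sit at the dim end of both axes.

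Members differed in how alike they ran over the 12 arrays. After centring each gene on its mean, Mfap5 and Fbln2 were closest, with a root mean square difference of 0.42 log2 units, followed by Fbln1 with Fbln2 at 0.62 and Mfap5 with Fbln1 at 0.69. Eln and Ltbp1 were farthest apart at 2.70. Averaged over the 9 tested members, the centred level ran from -1.55 to -0.21 in YFP+ and from 0.21 to 1.56 in YFP-. The YFP- arrays of slide 1 (replicates 3 and 6, at 0.21 and 0.24) and the YFP+ arrays of slide 3 (replicates 3 and 4, at -1.55 and -1.49) were the lowest of their groups. Among all features with a gene name, those closest to this average were Col4a1 (0.39), Col3a1 (0.45), Cdx2 (0.45), Cavin1 (0.47), Rab34 (0.49), Sparc (0.49), Cp (0.50) and Cpne8 (0.50), as root mean square differences over the 12 arrays. Col4a1 and Col3a1 are chains of basement membrane and fibrillar collagen, Sparc is a collagen-binding matrix protein and Cavin1 a coat protein of caveolae. Cdx2, Rab34, Cp and Cpne8 lay at similar distances, so the closest genes are not all matrix genes. The average separates the groups, so a gene lower in YFP+ by a similar amount lies close to it whatever its function.

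The other gene lists of elastic fibre biology held 2 calls, Efemp1 and Lox, both lower in YFP+. Of 15 further elastic fibre and microfibril proteins tested, 1 was lower in YFP+ and 0 were higher, beside 1.41% and 0.334% of all features. The median difference was 0.03. The one that passed was Efemp1, which encodes fibulin-3, with YFP+ levels of -7.27, -6.69 and -4.25 and YFP- levels of -4.52, -1.29 and -0.64 at the lowest, median and highest. It was well above background on 2 of 6 YFP+ and 5 of 6 YFP- arrays, and the groups overlapped through YFP- replicate 6, at -4.52 and not well above background. The difference was -4.39 ± 0.74 (SE, n = 6 per group), with an adjusted p of 0.0096 by limma. As 4 of the 6 YFP+ arrays were not well above background, its size rests largely on dim signals. With array brightness as a covariate Efemp1 did not pass (limma adjusted p = 0.33). Fbn2, the second fibrillin, was at -0.18 (adjusted p = 0.85), Efemp2, or fibulin-4, at -0.62 (0.44) and Ltbp2 at -1.64 (0.13) in the limma fit without that covariate.

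Of the enzymes that cross-link elastin, 1 of 4 tested passed, lower in YFP+, beside 1.41% of all features. Lox, lysyl oxidase, had YFP+ levels of -5.49, -3.67 and -2.35 and YFP- levels of -1.999, -0.54 and -0.38. Its probe was well above background on 5 of 6 YFP+ and 6 of 6 YFP- arrays. The groups did not overlap, and the difference was -3.03 ± 0.47 (SE, n = 6 per group), 8.17-fold lower in YFP+, with a limma adjusted p of 0.0054. With array brightness as a covariate Lox did not pass (adjusted p = 0.11 in that limma fit). Loxl1 (-1.55, adjusted p = 0.17) and Loxl2 (-1.23, adjusted p = 0.44) did not pass in the limma fit without that covariate. All 4 estimates of these enzymes were negative, with a median of -1.39 and medians of -1.63, -1.31 and -1.47 within slides 1, 2 and 3. None of the 10 elastin-degrading proteases tested passed, with a median of -0.12. Mmp12, the macrophage elastase, was at 5.48 ± 0.17 (SD, n = 6) in YFP+ and 5.50 ± 0.40 (SD, n = 6) in YFP-. None of 10 receptors for elastin and microfibrils passed (median -0.02), and none of 7 TGF-beta ligands and receptors (median -0.25), of which Tgfb1 was at 0.48 ± 0.19 (SE; limma adjusted p = 0.34). An unadjusted limma p under 0.05 was reached by 0 of the 10 proteases, 0 of the 10 receptors and 2 of the 7 TGF-beta genes, Tgfb1 and Tgfb2. When arrays were centred on their median instead, all features had a median difference of 0.18. The medians were then -2.16 for the members, 0.24 for the further elastic fibre proteins, -1.18 for the cross-linking enzymes, 0.08 for the proteases, 0.18 for the receptors, -0.04 for the TGF-beta genes and 0.10 for the macrophage markers, so the medians of the proteases, the receptors and the macrophage markers changed sign.

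Markers of some other cell types, mainly fibroblast, epithelial and mesothelial ones, were also lower in YFP+, while none of 9 endothelial markers passed by limma. Of 16 fibroblast markers tested 7 were lower in YFP+ and 0 higher, beside 1.41% and 0.334% of all features. Their median was -1.73, and 15 estimates were negative, against 52.8% of all features. Postn was at -2.53 (limma adjusted p = 0.0018), Col5a1 at -2.42 (0.0040), Col3a1 at -1.72 (0.013) and Col1a1 at -1.69 (0.023). With array brightness as a covariate 1 of the 7 passed, Postn (limma adjusted p = 0.027), and the list median was -1.57. The summed level of the fibroblast list, in multiples of the array's 75th percentile, ran from 27.1 to 48.2 in YFP+ and from 67.5 to 153 in YFP-, and that of the members from 3.08 to 8.32 and from 10.8 to 22.1. Such a sum is set mostly by the brightest probes, on average those of Mfap4 and Fbln2 among the members, and is no measure of every gene listed. The 12 fibroblast markers well above background on all 12 arrays include Col1a1, Col3a1 and Dcn, while Dpt was below background on all arrays. They also include Pdpn (-0.27), Fap (-0.45), Clec3b (-0.11), Col14a1 (-0.05) and Pi16 (0.33), none of which passed by limma. The fibroblast markers were therefore not lower as a whole. The median difference of the fibroblast list was -1.39, -1.91 and -1.72 within slides 1, 2 and 3.

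Epithelial markers were lower as well, 5 of 10 tested, beside 1.41% of all features. The median of this list was -1.95, and its summed level was 5.004 to 11.45 in YFP+ and 15.7 to 42.1 in YFP-. Among the 5 were the keratins Krt8 (-2.59, limma adjusted p = 0.0015), Krt18 (-2.11, 0.0063) and Krt19 (-2.94, 0.0066) and the mucin Muc1 (-2.31, 0.0020). The remaining call was Sox9 (-4.14, limma adjusted p = 0.0093). It was well above background on 1 of 6 YFP+ and 5 of 6 YFP- arrays, so its size rests largely on dim signals. With array brightness as a covariate none of the 5 passed (limma adjusted p 0.17 to 0.40), and the list median was -1.82. Krt8 and Krt19 are also the 2 of 4 mesothelial markers that passed, with a list median of -2.76 and a summed level of 1.08 to 5.64 against 8.30 to 27.1. Of 9 pericyte and smooth muscle markers 1 passed, Cspg4, at -2.44 (limma adjusted p = 0.016), with a list median of -1.14 and a summed level of 2.22 to 5.22 against 3.98 to 7.80. With array brightness as a covariate Cspg4 did not pass (limma adjusted p = 0.34), and the list median was -0.12. The 2 mesothelial calls were also lost with that covariate, where the list median was -2.38. None of 9 endothelial markers passed by limma (0 had an unadjusted p under 0.05), with a median of -0.10. The summed level of the 15 macrophage markers overlapped between the groups, at 235 to 383 in YFP+ and 257 to 424 in YFP-, and their median difference was 0.44 with brightness as a covariate, beside 0.15 over all features. The part of other cell types in the lower level of the members was not tested.

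**Figure D4:**
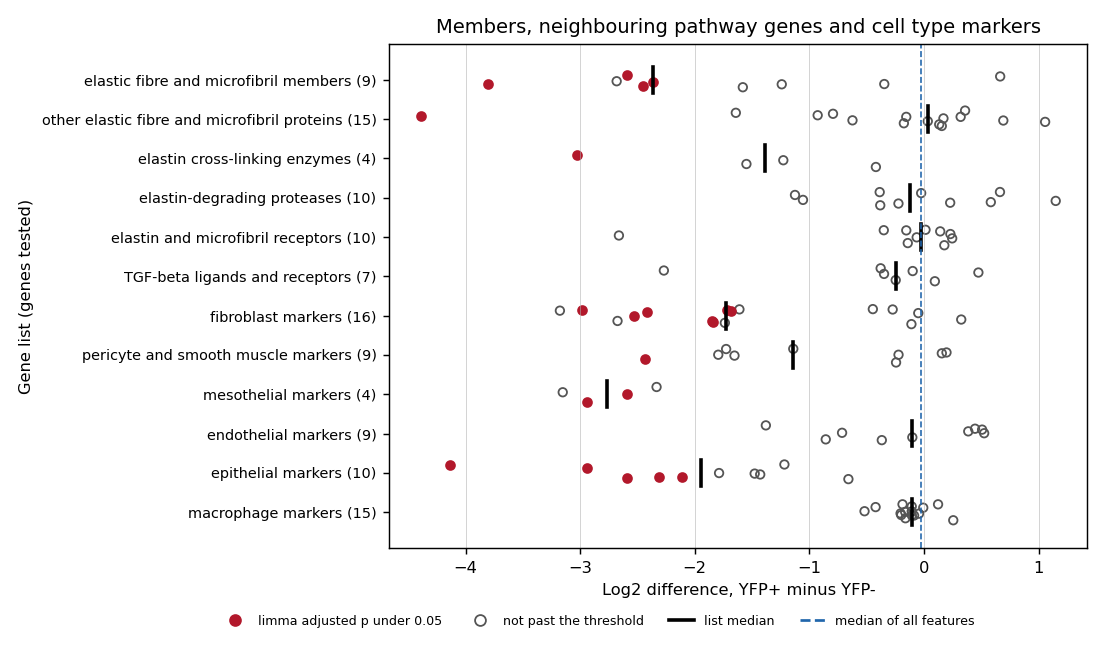
Log2 difference of YFP+ minus YFP- for each tested gene of the members, the neighbouring pathway lists and the cell type marker lists, with the number tested in brackets, red for genes past the limma threshold, a black bar for the list median and a dashed blue line for the median of all features (-0.03). The medians of the members (-2.37), the fibroblast (-1.73), epithelial (-1.95) and mesothelial (-2.76) markers lie left of the line, and the 15 macrophage markers gather around -0.11.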

How the data were processed

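Sorted cells were lysed, and their RNA was amplified to cDNA, given a Cy5 label and put on Agilent arrays, per the labels' protocols. The deposited intensity values are red processed signals of Agilent Feature Extraction 11.5.1.1, per the file headers, after background subtraction and without scaling between arrays. The flag for a signal well above background is the scanner software's own, per the deposited files. The authors' deposited log2 value table, with a median of 8.83 in all columns, was an alternative, and 0 of its columns were unused.

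Control spots and flagged outliers were left out and repeat spots averaged. From each log2 signal the array's 75th percentile was subtracted. A probe entered if well above background on 6 or more of the 12 arrays, and the brightest entering probe stood for its gene. Of 39429 probes, 28330 had an accession in RefSeq, from which their names were taken. The main test was limma 3.58.1 under R 4.3.3 (lmFit, eBayes, no factor but group) with Benjamini-Hochberg adjustment over 20370 features at a threshold of 0.05. Single values outside the filter were compared by exact two-sided permutation tests (scipy 1.17.1). The fit was tested on simulated data. The genes, lists and tests were chosen with earlier results of these data known. The text names every member, each passing gene of the closest pathway lists, and at most 4 passing genes of each other list, with Sox9 besides. It also names the 8 genes most like the members, and Csf1r and Adgre1. Other genes named without passing were chosen after their values were seen. Alternatives were replicate number or slide as a block, each slide alone, brightness as a covariate, background correction, normalization, filters, probe choice, variance model, array weights, thresholds and left-out arrays. Other macrophages of the series were not analysed here, and 1 probe sequence is not reported here.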

Additional observations from a re-analysis of the deposited data

Results flagged for a closer look

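Among the 28 sets of 6 arrays formed by the 14 member probes and both groups, 3 had a lowest or highest array set far apart from the others by Dixon's test of the gap against the range; chance alone gives about 1 in 20. For Ltbp1, YFP- replicate 4 was lowest on the first probe at -2.88, while the other 5 YFP- arrays lay between -0.73 and 0.18. On the second Ltbp1 probe YFP+ replicate 3 was lowest at -5.65 and not well above background, with the others between -4.24 and -3.65. On the second Fbln5 probe YFP+ replicate 5 was highest at -5.83, with the others between -7.28 and -6.90, and none of these 6 was well above background.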

How the results depend on the processing

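Fbn1, Mfap5, Fbln1 and Fbln2 kept their direction in every setting run. In the left-out, single-slide and block fits that direction was fixed in advance, since their groups did not overlap. The count of 4 members called held with the slide as a block, quantile normalization, median centring, the deposited table, no filter and a gene's mean probe. It held as well with every probe alone, an intensity trend, array weights, and in each left-out fit (4 to 4). The count was 0 with brightness as a covariate and 0 within slide 1, slide 2 or slide 3 alone, where 2 arrays faced 2. It was 5 with normexp correction (Ltbp1 added) and 3 with a filter on all 12 arrays, where Fbn1 was not tested. Brightness as a covariate turned Mfap4 to 0.74 and Emilin1 to -0.27, slide 1 alone turned Eln to 3.95, and slide 2 alone turned Emilin1 to -0.89; the cause was not tested. Member probes detected on more YFP- arrays fell from 6 to 1 with the positive-and-significant flag, and were 5 to 7 with an array left out. The second Fbln5 probe, -1.84, was at -2.15 to -1.14 with an array left out and at -1.46 in the deposited table (exact permutation p = 0.063). The difference in brightness, 1019, stayed within 915 to 1157 with an array left out. Of all features 356 were called, 556 with the slide as a block, 541 with normexp, 233 with the filter on all arrays, 11 with brightness, 0 within a slide alone, and 209, 204 and 206 without tumour numbers 2, 3 and 5. Median centring moved the median of all features from -0.03 to 0.18 and the share of calls higher in YFP+ from 19.1% to 33.5%. Whether samples with equal tumour numbers are paired is not given: 4 of 6 pairs correlated above 0.1 (range -0.30 to 0.37), and 5 of 12 samples correlated best with their own number. With the replicate block 4 members and 296 features were called (1.21% of all features lower in YFP+). Dim probes of Eln, Fbln5 and the second Fbln1 site limit what can be said of them.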
